A study of Mus musculus with 2 samples.

Results

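The sebaceous lipid genes Scd1, Scd3, Awat2, Dgat2, Elovl3, Far2, Mc5r, Pparg, Cidea and Soat1 were followed in single-cell counts of mouse skin, as 10 of the 19059 genes in the files. The skin came from 2 untreated animals, a wildtype mouse of strain C57BL/6J and a mouse lacking Eppk1 (Eppk1-/-) backcrossed into the C57BL/6J background. The number of backcross generations is not given in the sources used here. Eppk1 encodes epiplakin, a keratin-binding plakin. A 6 mm punch of dorsal skin per mouse was dissociated and profiled with the 10x Genomics Flex assay, in which pairs of probes are ligated on fixed RNA and counted as unique molecular identifiers (UMIs). The age and sex of the mice are not given in the sources used here, and whatever else differed between the 2 animals or their libraries cannot be told apart from the genotype.

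Sebaceous glands open into the hair follicle and renew themselves from proliferating cells at their margin, which fill with lipid droplets and finally burst to release sebum. Sebum of mice is rich in wax esters, triglycerides and sterol esters. Scd1 and Scd3 encode stearoyl-CoA desaturases, which introduce a double bond into saturated fatty acids, and Elovl3 lengthens very long chain fatty acids. Far2 reduces fatty acyl-CoA to the fatty alcohols of wax, Awat2 joins alcohol and acid to wax ester, Dgat2 makes triglyceride and Soat1 esterifies cholesterol. Cidea enlarges lipid droplets, Pparg is a nuclear receptor that drives lipogenic programmes, and Mc5r is the melanocortin receptor best known for its role in sebaceous and other exocrine glands.

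Scd1 and Scd3 are close relatives, and a probe placed in a stretch that both share could count either one. Their coding sequences (GENCODE M21, GRCm38) were 1068 and 1080 bases long and 91.5% identical over 1068 aligned bases. The longest identical run held 185 bases and is shown in capitals, with 15 bases on either side in lower case. It covers coding bases 463 to 647 of Scd1 (chr19:44394455-44407879, minus strand) and 475 to 659 of Scd3 (chr19:44203269-44244016, plus strand).
Scd1: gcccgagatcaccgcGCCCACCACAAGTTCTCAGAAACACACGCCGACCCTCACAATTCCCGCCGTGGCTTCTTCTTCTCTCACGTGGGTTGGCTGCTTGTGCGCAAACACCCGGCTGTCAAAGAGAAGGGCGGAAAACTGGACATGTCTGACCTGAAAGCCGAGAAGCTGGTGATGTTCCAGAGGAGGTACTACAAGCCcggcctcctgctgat
Scd3: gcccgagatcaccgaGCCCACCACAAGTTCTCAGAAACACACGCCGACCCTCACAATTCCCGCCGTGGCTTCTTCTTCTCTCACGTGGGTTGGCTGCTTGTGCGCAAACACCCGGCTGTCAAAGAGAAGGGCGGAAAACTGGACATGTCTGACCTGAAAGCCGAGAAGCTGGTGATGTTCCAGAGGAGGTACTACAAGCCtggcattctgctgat
Of the 1019 windows of 50 bases in the Scd1 coding sequence, 167 also occurred in Scd3 and 145 in Scd2, which is 90.4% identical to Scd1. The probe sequences were not used here, so whether any lies in such a window is not known, and the part of shared stretches in the counts was not tested. Sebaceous-like cells held 32829 wildtype and 47845 Eppk1-/- UMIs of Scd1 but 0 and 4 of Scd2, and the middle tier of wildtype sebaceous-like cells (below the upper tier by marker score) held 10062 UMIs of Scd1 and 7 of Scd3.

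Dgat2 (chr7:99153658-99182719, minus strand) and Awat2 (chrX:100402221-100442717, minus strand) belong to another shared family, and here the coding sequences were 62.7% identical. Their longest identical run, again in capitals within 15 flanking bases, held 13 bases, and no window of 50 bases was common to both.
Dgat2: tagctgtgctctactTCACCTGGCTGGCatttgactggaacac
Awat2: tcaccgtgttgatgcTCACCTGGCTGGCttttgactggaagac
The same was true of Dgat2 against Awat1 and Dgat2l6, where no window of 50 bases was shared.

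The files held 9179 wildtype and 8811 Eppk1-/- cells, of which 8875 and 8617 passed the filters of the study. Cells were assigned to classes by 8 marker genes per class, none of them a member. The gate found 125 wildtype and 139 Eppk1-/- sebaceous-like cells, 1.41% and 1.61% of the cells, with 1265216 and 1829513 UMIs. Their median depth differed, at 6394 UMIs in wildtype and 12438 in Eppk1-/-. These cells were gated on the 8 sebaceous markers, so detection of the markers was largely set in advance. All 8 were detected in both libraries, from Dgat2l6 at 18.2 and 27.3 CPM (UMIs of a gene per 1000000 UMIs of its class) to Fa2h at 5104 and 5793 CPM. Of 8 white fat markers, 4 were detected there in wildtype and 2 in Eppk1-/-, summing to 49.0 and 30.1 CPM, mostly from Plin4 (38 and 42 UMIs) and Lipe (22 and 13 UMIs), while Adipoq, Lep, Retn and Pck1 were at 0 UMIs in both libraries. Markers of other cells were present. Basal keratinocyte markers summed to 5441 CPM (wildtype) and 5432 CPM (Eppk1-/-), follicle keratinocyte markers to 2749 and 2848 CPM and differentiated keratinocyte markers to 3455 and 6619 CPM. Fibroblast markers summed to 2320 and 3394 CPM and macrophage and dendritic markers to 742 and 172 CPM. The part of these differences in the results was not tested. Eppk1 stood at 3247 and 894 CPM in keratinocyte-like cells and at 695 and 50.3 CPM in sebaceous-like cells, lower in the library labelled Eppk1 knockout in each class. With 1 library per genotype no test between genotypes was possible. Every interval given is a 95% interval of counting error only or, for shares of cells, of sampling cells within 1 library. PCR and capture differences between libraries are not covered. The study describes a pooled wash workflow. In the files, 1211 cells of each library had a droplet barcode that also occurred in the other. Carryover of RNA between the libraries was not tested.

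The 10 genes together made up 3.82% of all sebaceous-like UMIs in wildtype and 4.04% in Eppk1-/-. Scd1 led by a wide margin, with 25947 CPM (wildtype) and 26152 CPM (Eppk1-/-), which was 68% and 64.7% of the UMIs of all 10 genes. Scd3 was second at 4775 and 5109 CPM. Cidea stood at 1923 and 2426 CPM, Soat1 at 1828 and 2739 CPM, and Far2 at 1646 and 1945 CPM. The lower levels belonged to Elovl3, at 786 and 725 CPM, Dgat2, at 529 and 465 CPM, and Mc5r, at 432 and 480 CPM. Pparg stood at 213 and 202 CPM and Awat2 came last, at 97.2 and 180 CPM. Scd1 exceeded Awat2 by 267-fold in wildtype and 145-fold in Eppk1-/-.

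The order was close to the same in both libraries. Of the 10 genes, 6 held the same rank, while Cidea and Soat1, and Dgat2 and Mc5r, changed places. Not every step in the order was beyond counting error: in wildtype the intervals of Cidea (1847 to 2001 CPM) and Soat1 (1754 to 1904 CPM) overlapped, and in Eppk1-/- so did those of Mc5r and Dgat2 and those of Pparg and Awat2. Levels were also expressed per kilobase of annotated exon; how many probes each gene has was not known here, and probe counts need not scale with length, so both orders are given. Per kilobase Scd1 again came first (5304 and 5346 CPM per kb), but Cidea, the shortest of the members, moved to second (1725 and 2176 CPM per kb), ahead of Scd3 (1344 and 1438 CPM per kb), and Elovl3 moved to rank 4 (398 and 367 CPM per kb). Soat1, whose exons span 9791 bases, fell back to rank 6 in wildtype and rank 5 in Eppk1-/-.

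**Figure D1:**
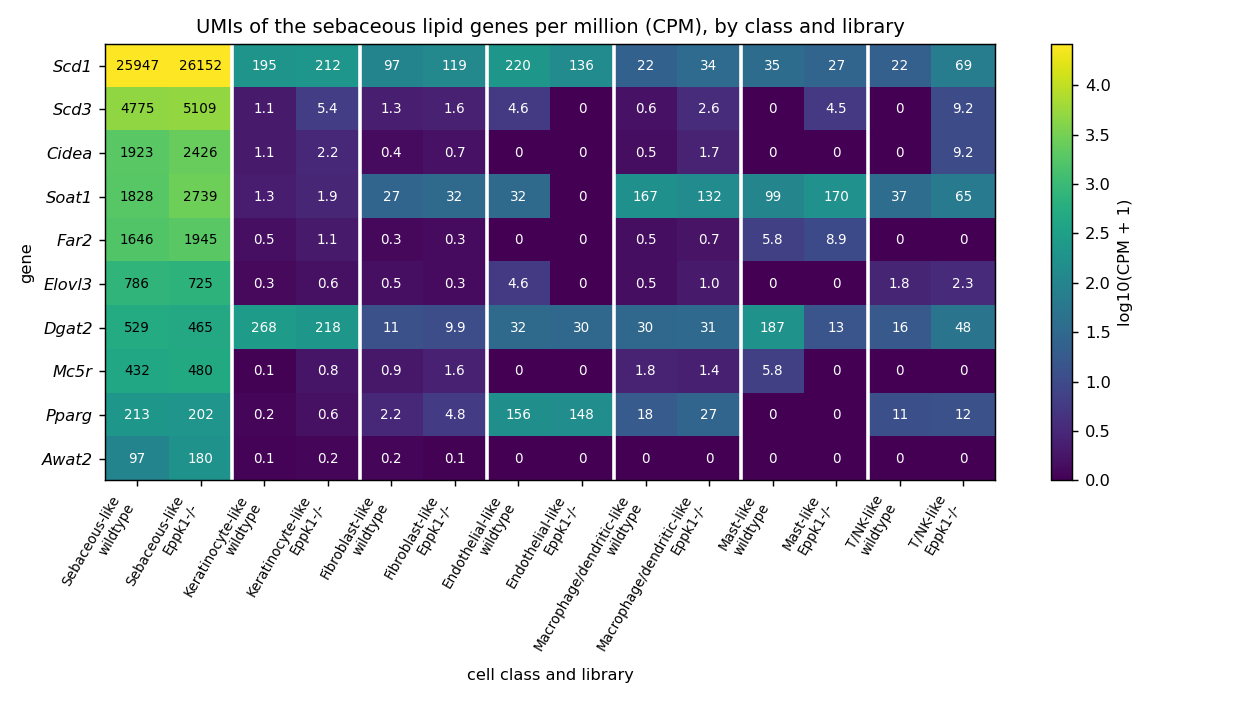
Heat map of the 10 genes (rows, in the wildtype order of sebaceous-like cells) by cell class and library (columns), coloured by log10(CPM + 1) with the CPM printed in each cell. Every gene is highest in the sebaceous-like columns. The higher values outside them include Scd1 (195 and 212 CPM) and Dgat2 (268 and 218 CPM) in keratinocyte-like cells. Others are Scd1 (220 and 136 CPM) and Pparg (156 and 148 CPM) in endothelial-like cells and Soat1 in macrophage and dendritic-like cells (167 and 132 CPM). Dgat2 in mast-like cells stands at 187 CPM in wildtype, on 32 UMIs in 5.45% of 55 cells, and at 13.4 CPM in Eppk1-/-. Soat1 stands at 170 CPM in Eppk1-/- mast-like cells.

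How exclusive these genes were to sebaceous-like cells varied. Scd3, Far2, Elovl3, Cidea and Awat2 had between 94.6% and 98.8% of their UMIs in the sebaceous-like class in both libraries, although that class held under 2% of the cells. Mc5r had 89.1% and 87.5% there, and Scd1 78.4% and 85.1%. Awat2 was at 0 UMIs in macrophage and dendritic-like cells, where 3 counts would be 0.482 CPM (wildtype) and 0.524 CPM (Eppk1-/-). The remaining genes were shared with other cells. Soat1 had 59% and 75.6% of its UMIs in sebaceous-like cells and 26.5% and 11.4% in macrophage and dendritic-like cells, where it stood at 167 and 132 CPM. Pparg had 52.1% and 53.2% in sebaceous-like cells and 21.5% and 22.2% in macrophage and dendritic-like cells. Its level in endothelial-like cells, 156 and 148 CPM, was 73.2% and 73.4% of the sebaceous-like level, but this rested on 34 and 25 UMIs, with intervals of 49.6% to 105% and 46.9% to 110%. Dgat2 was the reverse of the others: 85.7% and 76.9% of its UMIs lay in keratinocyte-like cells and 6.7% and 13.8% in sebaceous-like cells.

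In sebaceous-like cells, 2 of the 10 genes differed by 0.5 or more on the log2 scale between the libraries, both of them higher in Eppk1-/-. Over all 6830 genes with at least 50 UMIs in these cells, 24.9% passed that size, 6.95% higher and 18% lower, so the count of 2 in 10 is close to the general rate. Awat2, the wax ester synthase, went from 97.2 CPM (123 UMIs) to 180 CPM (329 UMIs), a log2 ratio of 0.88 (0.58 to 1.20). Soat1 went from 1828 to 2739 CPM, a log2 ratio of 0.58 (0.51 to 0.65), which lay at 0.48 when Fasn and Plin2 were dropped from the gate and at 0.48 when cells in droplets shared by both libraries were left out. Cidea followed with a log2 ratio of 0.33 (0.26 to 0.41) and Far2 with 0.24 (0.16 to 0.32). In these sums the desaturases differed little, Scd1 by 0.01 (-0.01 to 0.03) and Scd3 by 0.10 (0.05 to 0.14). The ratio of Scd3 depended on the measure. Under the alternatives described at the end it ranged from -0.02 to 0.88, with 0.55 as a mean over cells, and that of Scd1 from -0.28 to 0.21. On the lower side stood Dgat2 at -0.19 (-0.33 to -0.04), Elovl3 at -0.12 and Pparg at -0.08, and the intervals of Elovl3 and Pparg included 0. The median log2 ratio was 0.13 over the 10 genes and -0.13 over all genes tested, and 7 of the 10 lay above 0. Relative to the median of all genes, Elovl3 and Pparg turned to 0.01 and 0.06, Dgat2 stood at -0.05 and Soat1 and Awat2 at 0.72 and 1.02. Summed, the 10 genes gave 38176 CPM for wildtype and 40422 CPM for Eppk1-/-, a log2 ratio of 0.08 (0.07 to 0.10).

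**Figure D2:**
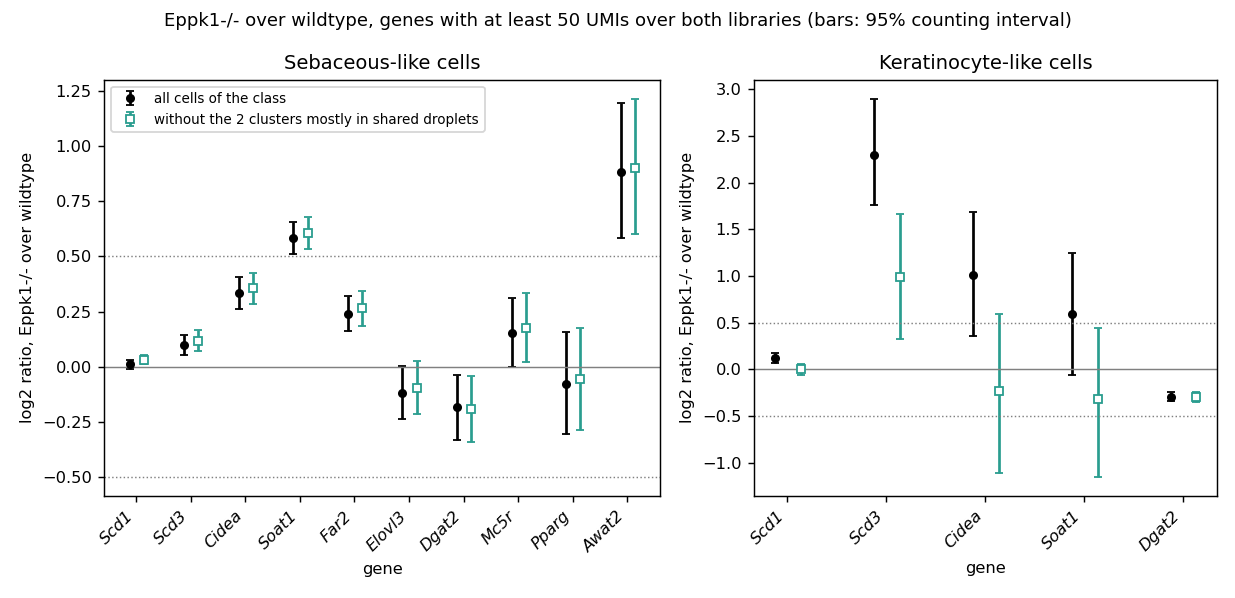
Log2 ratio of Eppk1-/- over wildtype for genes with at least 50 UMIs over both libraries, in sebaceous-like cells (left) and keratinocyte-like cells (right), with 95% counting intervals and dotted lines at the size of 0.5. Filled points use all cells of the class and open squares leave out 2 clusters lying mostly in shared droplets; the latter brings Scd3 in keratinocyte-like cells from 2.30 to 0.98 and moves Cidea and Soat1 below 0, while the sebaceous-like values hardly shift.

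Levels within the sebaceous-like class were far from uniform, and the pattern differed between members. The cells of both libraries were ranked by their gate score, the mean of the 8 sebaceous markers, and cut into 3 tiers of 88 cells; this ranking was chosen after the data were seen and uses no member. The proliferation gene Mki67 fell from 166 CPM in the lower tier to 1.73 CPM in the upper tier in wildtype, and from 148 to 0.785 CPM in Eppk1-/-. Median depth moved with the tiers too, from 4772 to 21796 UMIs in wildtype and from 4210 to 22221 UMIs in Eppk1-/-; its part in the pattern was not tested.

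Scd1 was 16.1-fold higher in the upper than in the lower tier in wildtype and 16.3-fold higher in Eppk1-/-. In wildtype it stood at 2388, 23108 and 38449 CPM in the lower, middle and upper tier. Scd3 behaved unlike Scd1. It stood at 23.7, 16.1 and 10460 CPM in wildtype and at 20.5, 169 and 7286 CPM in Eppk1-/-, so that nearly all of it lay in the upper tier. Awat2 stood at 7.89, 39.0 and 180 CPM in wildtype and Far2 at 59.2, 850 and 2944 CPM, both climbing through each tier. Cidea and Soat1, in contrast, were already near their upper-tier level in the middle tier, Cidea at 154, 2014 and 2632 CPM and Soat1 at 103, 1908 and 2526 CPM in wildtype. Dgat2 was highest in the middle tier, at 276, 847 and 399 CPM in wildtype and 548, 1085 and 277 CPM in Eppk1-/-. Mc5r and Pparg showed the least spread: Mc5r stood at 406, 480 and 406 CPM in wildtype and at 302, 650 and 459 CPM in Eppk1-/-, and Pparg at 126, 216 and 248 CPM and at 184, 225 and 198 CPM.

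**Figure D3:**
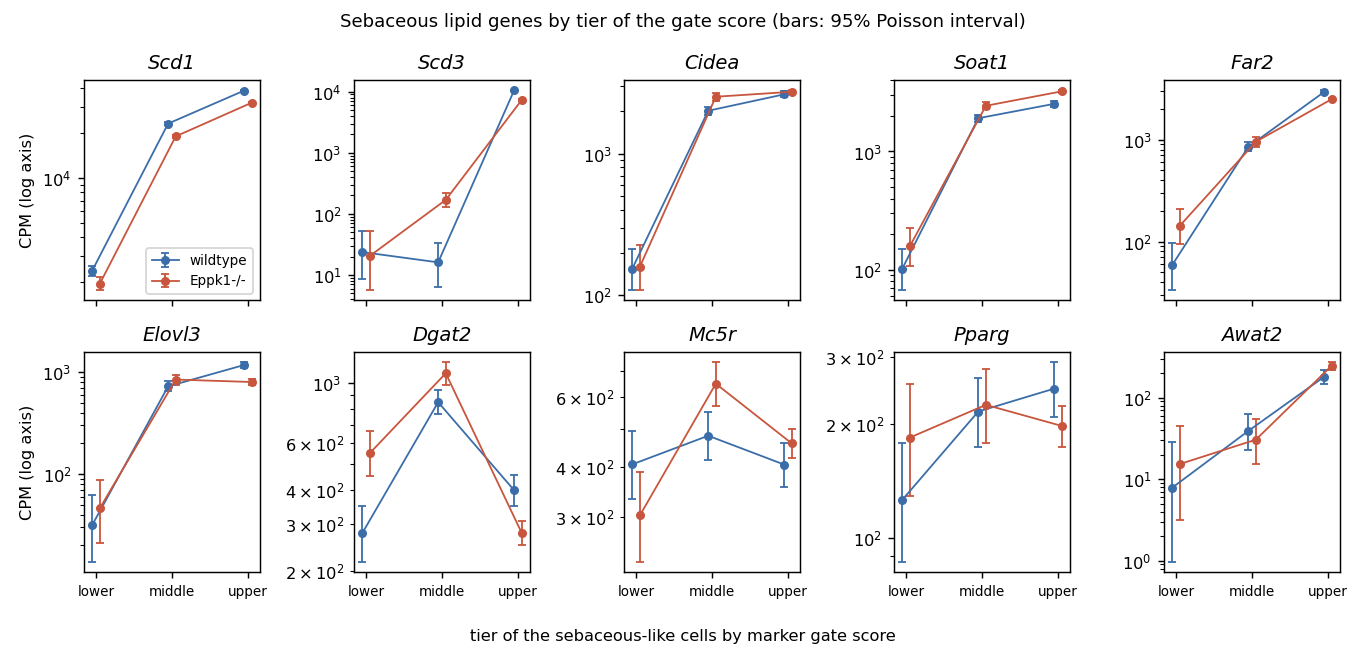
CPM of each gene (log axes that differ between panels) in the lower, middle and upper tier of sebaceous-like cells by gate score, for wildtype (blue) and Eppk1-/- (red), with 95% Poisson intervals. Scd3 is confined almost wholly to the upper tier (10460 and 7286 CPM), Dgat2 peaks in the middle tier (847 and 1085 CPM), and Mc5r stays within 302 to 650 CPM.

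Single cells told the same of Scd3. It was at 0 UMIs in 96 of 125 wildtype and 64 of 139 Eppk1-/- sebaceous-like cells. Each cell was thinned to 2000 UMIs, which left out 9 and 15 shallower cells. Scd3 was then found in 17.2% (10.9% to 25.4%, exact binomial) of wildtype and 34.7% (26.4% to 43.7%) of Eppk1-/- cells, against 91.4% and 96% for Scd1. These intervals take the cells of 1 library as independent and do not measure the spread between mice. In keratinocyte-like cells thinned alike, Scd3 was found in 0.221% and 0.809%. Over the thinned sebaceous-like cells of 1 library, which share that library, the rank correlation of Scd3 with Dgat2 was the lowest of the 45 pairs, at -0.21 over 116 wildtype and -0.36 over 124 Eppk1-/- cells, and that of Scd1 with Soat1 the highest, at 0.82 and 0.72.

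The libraries filled the tiers differently. Of the wildtype sebaceous-like cells 42.4% were in the lower and 21.6% in the upper tier, whereas in Eppk1-/- 25.2% were in the lower and 43.9% in the upper tier, which supplied 69.6% of the sebaceous-like UMIs. Compared within tiers, the summed 10 genes were not higher in Eppk1-/-: the log2 ratio was -0.02 (-0.16 to 0.13) in the lower, -0.11 (-0.15 to -0.08) in the middle and -0.26 (-0.28 to -0.24) in the upper tier. Scd1 was lower in Eppk1-/- in all 3 tiers, with log2 ratios of -0.29, -0.28 and -0.27. In the upper tier Scd3 gave -0.52 (-0.57 to -0.47), Elovl3 -0.55 (-0.69 to -0.41) and Dgat2 -0.53 (-0.77 to -0.28). Neither the share of all genes past 0.5 nor their median was computed within tiers. Over the whole class 18% of genes were lower by that size and the median log2 ratio was -0.13. Soat1 kept its sign, with 0.63 (-0.17 to 1.44), 0.35 (0.21 to 0.49) and 0.35 (0.26 to 0.44) in the lower, middle and upper tier. Awat2 gave 0.45 (0.13 to 0.79) in the upper tier, where most of its UMIs lay. In the lower tier it gave 0.86 (-2.17 to 4.54, on 2 and 3 UMIs). In the middle tier it gave -0.33 (-1.59 to 0.82, on 17 and 11 UMIs). Several gate markers were themselves higher in Eppk1-/- sebaceous-like cells, among them Awat1 (809 and 1344 CPM) and Pnpla5 (262 and 406 CPM). Lower were Plin2 (4696 and 4083 CPM) and Acsbg1 (2753 and 2519 CPM). The share of cells per tier and the ratios within tiers both rest on this score and are a description of these libraries. The part of the score and of the tier shares in the ratios was not tested.

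Keratinocyte-like cells, 4424 in wildtype and 3297 in Eppk1-/-, held the 10 genes at a summed 467 and 443 CPM, which was 1.22% (1.20% to 1.25%) and 1.10% (1.07% to 1.12%) of the sebaceous-like level. This low figure came almost wholly from 2 genes. Scd1, at 195 and 212 CPM, and Dgat2, at 268 and 218 CPM, supplied 99% of the keratinocyte-like UMIs of the 10 genes in wildtype and 97.1% in Eppk1-/-, against 69.4% and 65.8% in sebaceous-like cells. Relative to its own sebaceous-like level Dgat2 stood at 50.6% and 46.9% and Scd1 at 0.752% and 0.812%.

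The other 8 genes stood between 0.0145% (Mc5r) and 0.129% (Awat2) of their sebaceous-like level in wildtype, and between 0.0569% (Far2) and 0.274% (Pparg) in Eppk1-/-. Pooled, they came to 0.0401% and 0.0928%. In Eppk1-/-, 24 keratinocyte-like cells of 1 cluster, described below, held from 0% (Awat2) to 69.2% (Elovl3) of the keratinocyte-like UMIs of these genes. The pooled percentage without this cluster was not computed. In fibroblast-like cells, which do not make sebum, Scd1 stood at 97.5 and 119 CPM and Scd3 at 1.34 and 1.57 CPM. Scd3 in keratinocyte-like cells stood at 1.10 CPM (0.76 to 1.52) in wildtype, and the fibroblast-like interval (0.75 to 2.21 CPM) overlapped it. In Eppk1-/- it stood at 5.44 CPM, above the fibroblast-like level, but 71 of its 118 UMIs lay in the 24 cells of that cluster. Without these cells Scd3 stood at 2.17 CPM, within the fibroblast-like interval of Eppk1-/-, which reached up to 2.33 CPM. Among the other classes compared, Scd1 ranged from 0.0846% (T and NK-like) to 0.846% (endothelial-like) of its sebaceous-like level in wildtype. The range in Eppk1-/- was 0.103% (mast-like) to 0.521% (endothelial-like). Adipocyte-like cells were not compared because the Eppk1-/- library held only 1. In the 27 wildtype adipocyte-like cells Scd1 stood higher, at 343 CPM (75 UMIs).

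**Figure D4:**
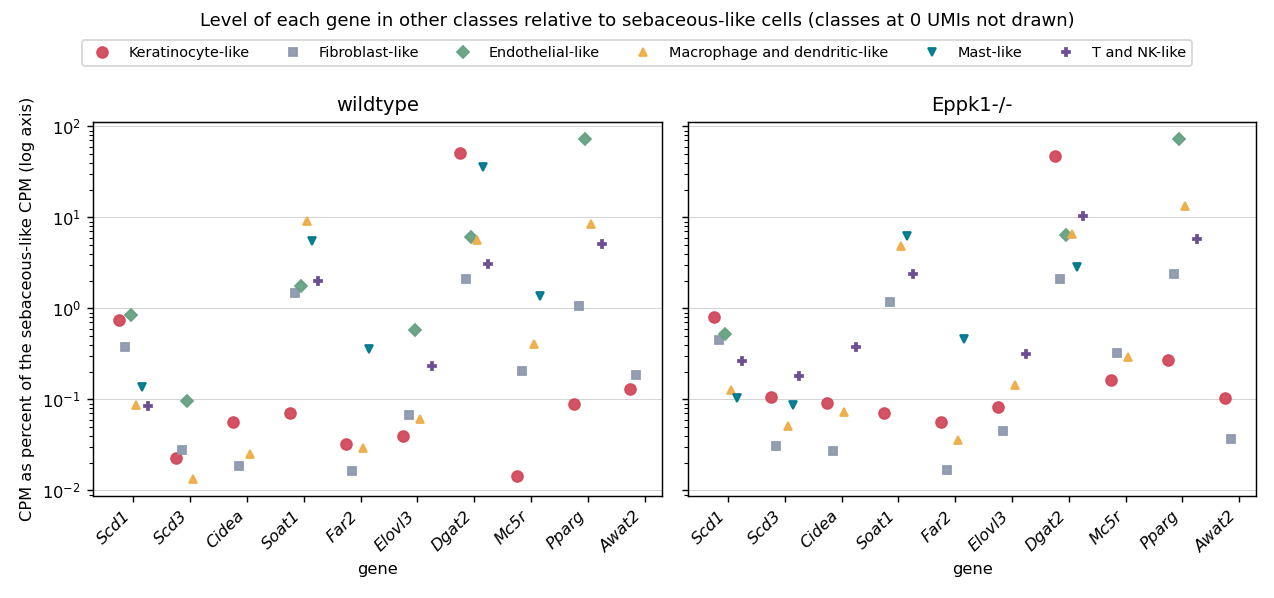
CPM in each other class as a percentage of the CPM in sebaceous-like cells (log axis), gene by gene, for wildtype (left) and Eppk1-/- (right), with classes at 0 UMIs left out. Keratinocyte-like cells (large circles) lie under 0.3% for 8 genes, under 1% for Scd1 (0.752% and 0.812%) and at 50.6% and 46.9% for Dgat2.

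Within keratinocyte-like cells, the levels of Dgat2 and Scd1 depended on the type of keratinocyte. Dgat2 stood at 478 CPM (wildtype) and 384 CPM (Eppk1-/-) in cells scoring highest for differentiated markers such as Krt10 and Lor, at 108 and 138 CPM in those scoring for follicle markers and at 14.2 and 12.6 CPM in basal cells. Scd1 was likewise highest in differentiated cells, at 314 and 332 CPM, but basal cells, at 76.3 and 101 CPM, exceeded follicle cells, at 42.9 and 35.1 CPM. With each cell thinned to 2000 UMIs, Dgat2 was found in 13.4% and 11.4% of keratinocyte-like cells, against 2.14% and 1.81% of fibroblast-like cells.

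Keratinocyte-like cells of very high depth, which the filter of the study removes above 45000 UMIs, carried the pattern further. In the 250 wildtype and 177 Eppk1-/- cells of this kind, of which 247 and 177 were of the differentiated type, Dgat2 reached 733 and 726 CPM, above its level in sebaceous-like cells. Scd1 stood there at 378 and 407 CPM, while Scd3 stood at 0.375 and 0.169 CPM and Elovl3 and Pparg at 0 UMIs in both libraries.

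Between genotypes, 5 of the 10 genes had at least 50 UMIs in keratinocyte-like cells, and 3 of these 5 differed by 0.5 or more on the log2 scale, all higher in Eppk1-/-; over all 11482 genes tested in these cells 7.52% did so, 3% higher and 4.51% lower. Scd3 went from 1.10 CPM (35 UMIs) to 5.44 CPM (118 UMIs), Cidea from 1.10 to 2.21 CPM and Soat1 from 1.28 to 1.94 CPM. Their log2 ratios were 2.30 (1.76 to 2.90), 1.01 (0.36 to 1.69) and 0.59 (-0.06 to 1.25). The abundant genes differed less, with 0.12 (0.07 to 0.18) for Scd1 and -0.29 (-0.35 to -0.24) for Dgat2.

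Much of each of these 3 differences rested on very few cells. A cluster of 53 cells found only in the Eppk1-/- library, clustered without the members, held 24 keratinocyte-like and 15 sebaceous-like cells together with 14 unassigned ones. Its 24 keratinocyte-like cells, 0.728% of that class, carried 60.2% of the Scd3, 58.3% of the Cidea, 47.6% of the Soat1 and 69.2% of the Elovl3 UMIs, but 8.47% of the Scd1 and 0.613% of the Dgat2 UMIs. Across the cluster sebaceous and late epidermal RNA occurred side by side, with Scd1 at 8179 CPM, Scd3 at 1406 CPM and Lce1m, a gene of the cornified envelope, at 13341 CPM. The median depth was 1874 UMIs. Eppk1 stood at 1564 CPM in this cluster, against 894 CPM in all Eppk1-/- keratinocyte-like and 50.3 CPM in all Eppk1-/- sebaceous-like cells. The source of this Eppk1 RNA was not tested.

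Of the 53 cells, 45 (84.9%) lay in droplets whose barcode also occurred in the wildtype library, compared with 13.7% of all retained Eppk1-/- cells. In 42 of these 45 droplets the wildtype partner belonged to 1 other cluster, the 45 partners had a median of 772 UMIs, and none was sebaceous-like. Conversely, 68.2% of the 66 wildtype cells in that second cluster shared a droplet. That cluster also held 27 Eppk1-/- cells with a median of 6339 UMIs, of which 2 shared a droplet. The 10 genes summed to 11787 CPM in the cluster of 53 cells, while the second cluster held them at 343 CPM in its wildtype cells and at 147 CPM in those of the Eppk1-/- library. Without both clusters the keratinocyte-like log2 ratio was 0.98 (0.33 to 1.66) for Scd3, -0.23 (-1.11 to 0.59) for Cidea, -0.32 (-1.15 to 0.45) for Soat1 and -0.00 (-0.06 to 0.05) for Scd1, and only Scd3, with 35 and 47 UMIs, still passed the size of 0.5. In sebaceous-like cells the same step left the log2 ratios of Awat2 at 0.90 and Soat1 at 0.61. Keratinocyte-like cells with no partner in their droplet held Scd3 at 1.14 CPM if wildtype and 2.49 CPM if Eppk1-/-.

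Other genes of the same pathways were counted in sebaceous-like cells from lists with the members taken out, and over all genes tested there 6.95% were higher and 18% lower by the same size. In fatty acid synthesis, elongation and desaturation, 2 of 16 genes with enough UMIs were higher by 0.5 or more in Eppk1-/- and 0 were lower. Elovl4, which makes very long chain fatty acids, went from 17362 to 26910 CPM and Elovl1 from 22.1 to 34.4 CPM, with an interval that included 0. Elovl1 stood far higher in keratinocyte-like cells, at 571 CPM (wildtype) and 517 CPM (Eppk1-/-). The part of keratinocyte RNA in its sebaceous-like counts was not tested. In wax, triglyceride and sterol ester synthesis, 3 of 17 were higher and 6 lower. The wax synthase Awat1, also a gate marker (log2 ratio 0.73), and the acyltransferase Agpat3 (0.91, from 386 to 724 CPM) were among the higher genes, and Dgat2l6, another gate marker, rested on 23 and 50 UMIs. The acyltransferase Agpat2, which acts early in triglyceride synthesis, was lower by -2.74 (114.6 to 16.9 CPM), as were the acyl-CoA synthetase Acsl3 (-1.29), the phosphatidate phosphatase Lpin2 (-1.09) and the alcohol-forming reductase Far1 (-0.88), the paralogue of Far2.

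Among 11 genes of lipid droplets and lipolysis, 2 were higher and 0 lower. Pnpla3, a lipid droplet hydrolase, went from 5.53 CPM (7 UMIs) to 92.9 CPM (170 UMIs). This rise was not confined to sebaceous-like cells, since Pnpla3 in keratinocyte-like cells also climbed between the libraries, from 14.1 to 55.4 CPM. Its wildtype level was thus higher in keratinocyte-like than in sebaceous-like cells. Pnpla5, also a gate marker, gave a log2 ratio of 0.63 in sebaceous-like cells. Of 17 regulators of lipid genes, 0 were higher and 3 lower, namely Srebf1 (-1.08, from 200 to 94.6 CPM), Srebf2 (-0.62, from 336 to 218 CPM) and the coactivator Ppargc1b (-0.81, on 28 and 23 UMIs). Of the melanocortin pathway, 8 other genes were in the files and none reached 50 UMIs in sebaceous-like cells, so Mc5r was the 1 gene of that pathway with a level to compare. Across the 4 lists with tested genes the median log2 ratio lay between -0.13 and 0.15, beside -0.13 over all genes.

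Likeness to the summed members was ranked over 6780 genes with at least 50 UMIs in sebaceous-like cells, members and gate markers left out. This filter uses the class where the members are highest, so a high r partly restates a high level there. Over 7 classes and 2 libraries, Cat, Alad and Acsl5 came first, with Pearson r of 0.986, 0.982 and 0.978. The 14 points of log2(CPM + 1) share libraries and classes. Cat encodes catalase, Alad an enzyme of haem synthesis and Acsl5 an acyl-CoA synthetase. They were followed by Ugt1a1, Ofcc1, Acox2, Panx3, Echdc1, Hsd3b6 and Cyp2j12, down to 0.970. Among the members, by the same measure, Awat2 (0.969), Scd1 (0.957) and Scd3 (0.953) were most like the sum of all 10. Least like it were Dgat2 (0.774), Soat1 (0.610) and Pparg (0.561), the members with the smallest shares of their UMIs in sebaceous-like cells. Each member is part of that sum, and Scd1 made up 68% (wildtype) and 64.7% (Eppk1-/-) of it in sebaceous-like cells, so these values are partly built in.

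Promoters of 5 of the 10 genes were found in the RefSeq table for GRCm38.p6, with 8 start sites in all. The stretches before the annotated first exon of Scd3 and Awat2 are shown because Scd3 lay almost wholly in the upper tier and Awat2 had the largest log2 ratio of the members in sebaceous-like cells. They are chr19:44203038-44203268 on the plus strand for Scd3 and chrX:100442718-100442967 on the minus strand for Awat2, and capitals mark CCAAT. Awat2 has 2 of the start sites. The stretch before the other, chrX:100412588-100412837, is not shown and held CCAAT on the opposite strand.
Scd3: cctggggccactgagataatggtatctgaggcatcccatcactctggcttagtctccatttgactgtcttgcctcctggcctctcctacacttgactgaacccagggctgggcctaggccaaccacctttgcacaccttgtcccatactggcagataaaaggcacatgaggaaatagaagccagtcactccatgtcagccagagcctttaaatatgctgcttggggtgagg
Awat2: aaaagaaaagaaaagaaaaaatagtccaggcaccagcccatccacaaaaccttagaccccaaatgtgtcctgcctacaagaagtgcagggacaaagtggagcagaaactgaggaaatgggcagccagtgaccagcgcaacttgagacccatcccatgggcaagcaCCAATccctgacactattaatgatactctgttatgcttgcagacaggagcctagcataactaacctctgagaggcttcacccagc
In windows of 300 bases, from 250 before to 50 after the start, the letters CCAAT on either strand were held by 5 of the 8 member windows, each belonging to Awat2, Pparg or Soat1, and by 37.4% of all 32851 promoter windows. The letters AGGTCA repeated with any 1 base between them, the kind of direct repeat read by Pparg with its partner receptor, were in 0 of the 8 and in 0.0396% of all windows, and TCACNCCAC, a sterol response element, in 0 of the 8 and 1.24% of all.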

How the data were processed

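Counts per gene and cell were deposited as matrices of whole UMI counts that the authors made with Cell Ranger against mm10 (GRCm38), 1 per library. The filters of the study were kept (200 to 45000 UMIs, 100 to 7500 genes, at most 10% mitochondrial UMIs) and 13 mitochondrial genes removed. A cell was classed by the mean of z-scored log1p(counts per 10000) over 8 markers per list, the best class leading the next by at least 0.5 with at least 3 markers detected; this scoring was set after the files were read. UMIs were summed per class and library and divided by the class total (CPM). Log2 ratios, Eppk1-/- over wildtype, carry 0.5 UMI added to each sum and exact conditional intervals; intervals of levels are Poisson, of shares Clopper-Pearson. Classes with under 20 cells in a library were left out (5 classes, namely adipocyte-like, melanocyte-like, mural-like, Schwann-like and skeletal muscle-like). The members, gene lists and comparisons were chosen with earlier results of these data known. Named pathway genes are at most 4 per list and direction by size. Scrublet (scanpy 1.11.5) marked 219 of 17492 cells as doublets, which were kept in the values reported. Other tools were scipy 1.17.1, igraph 0.11.9, Biopython 1.88 and edgeR 4.0.16 (TMM alternative only).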

Additional observations from a re-analysis of the deposited data

Results flagged for a closer look

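Dgat2 and Scd3 had opposite directions between tiers of the sebaceous-like cells, each beyond 0.5 on the log2 scale with intervals clear of 0. Dgat2 was higher in Eppk1-/- in the lower tier (0.98) and lower in the upper tier (-0.53). Scd3 was higher in the middle tier (3.31, on 7 and 61 UMIs) and lower in the upper tier (-0.52). Of the 61 UMIs, 32 lay in 12 cells of the cluster found only in the Eppk1-/- library. With 1 library per genotype the difference between tiers was not tested. The share of all genes past 0.5 was not computed within tiers.

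Cells outside the named classes, or removed by the upper limit on UMIs, also held the genes, above what 3 counts would give. Unassigned cells carried them at a summed 259 CPM in wildtype (1651 cells) and 362 CPM in Eppk1-/- (1393 cells). Cells above 45000 UMIs carried them at 1216 CPM (265 cells) and 1091 CPM (185 cells), and of these 1 wildtype cell was sebaceous-like.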

How the results depend on the processing

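No paired analysis was possible because each genotype has 1 library, and for the same reason no library could be left out in turn. The summed log2 ratio in sebaceous-like cells (0.08) was 0.20 with clusters in place of the gate, 0.036 with a stricter gate, -0.017 without Fasn and Plin2 in the gate, 0.041 without the cell filter, 0.14 without cells in shared droplets, 0.31 after thinning to 2000 UMIs, 0.28 as a mean over cells, 0.25 with TMM and 0.22 centred on the median gene (TMM moved every ratio in these cells by 0.17). Alternatives chosen after seeing the data gave 0.10 without the 2 clusters mostly in shared droplets, 0.12 with no lead required and -0.13 as the mean over tiers. In keratinocytes the summed ratio (-0.08) was 0.040 with clusters, -0.13 with the stricter gate, -0.0019 without the cell filter, -0.17 without shared droplets, 0.18 thinned, 0.39 as a mean over cells and -0.16 without the 2 clusters. No summed ratio reached 0.5. The keratinocyte level in percent of the sebaceous level was, in wildtype and Eppk1-/-, 1.46 and 1.30 with the stricter gate, 1.06 and 1.03 without Fasn and Plin2, 1.75 and 1.69 without the cell filter, 1.25 and 1.01 without shared droplets, 1.02 and 0.931 thinned, and 1.04 and 1.12 as a mean over cells; in Eppk1-/- it was 1.07 without the top Scrublet scores and 1.02 without the 2 clusters. The 2 members past 0.5 in sebaceous-like cells became 1 without Fasn and Plin2, without shared droplets and as the mean over tiers, where that 1 was Scd3 (0.88), and 3 with TMM and as a mean over cells. The 3 in keratinocytes became 1 with the stricter gate, without the cell filter, without shared droplets and without the 2 clusters, 4 with clusters and as a mean over cells, 2 thinned and without the top Scrublet scores, and 8 with no UMI minimum; without the 2 clusters Cidea (-0.23) and Soat1 (-0.32) turned lower. Over these alternatives Soat1 in sebaceous-like cells ranged from 0.44 to 0.84 and Awat2 from 0.33 to 1.16. Both were higher in Eppk1-/- in every alternative that gave a value (after thinning, Awat2 had too few UMIs for one). Within the middle tier alone Awat2 was lower (-0.33). The cause of these shifts was not tested. Under 50 UMIs, as for 5 genes in keratinocytes, levels are limited by depth.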
